A study of Homo sapiens with 28 samples.

Results

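The 8 genes described here encode the kinases that phosphorylate translation factor eIF2 and the factor's phosphorylated subunit itself. They also encode regulators of the phosphatase that removes the phosphate, and an inhibitor of the kinases. They were taken by symbol as a fixed set: the kinases EIF2AK1 (HRI), EIF2AK2 (PKR), EIF2AK3 (PERK) and EIF2AK4 (GCN2), the substrate EIF2S1 (eIF2 alpha), the phosphatase regulators PPP1R15A (GADD34) and PPP1R15B (CReP), and the kinase inhibitor DNAJC3 (p58IPK). Of 18811 genes with a named probe on the bead arrays, 7 of the 8 were among them, through 9 of the 47231 probes, and EIF2AK4 was not analysed here. The 28 arrays measured RNA from JeKo-1 and Z138, both established lines of mantle cell lymphoma, a cancer of B cells, in 3 experiments. JeKo-1 was collected before treatment and after 12, 24 and 36 h with ONC201, an anticancer compound that switches on CLPP, a protease of mitochondria, with 3 arrays per time and no dose in the labels. Parental Z138 and Z138 resistant to ONC201 were each kept without drug or exposed for 24 h to ONC201 at 5 µM, with 2 arrays per group. JeKo-1 was also exposed to tunicamycin at 1 µM (12 or 24 h) or rapamycin at 10 nM (24 h), beside a 24 h control, with 2 arrays per group. Rapamycin is an inhibitor of the kinase mTORC1, and tunicamycin stops the attachment of N-linked sugars to new proteins of the endoplasmic reticulum. Drugs were dissolved in DMSO and control cultures received DMSO.

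Phosphorylation of eIF2 alpha slows most protein synthesis because the phosphorylated factor blocks its own exchange factor, eIF2B, while a few mRNAs such as that of ATF4 are then translated better. Each kinase answers its own kind of stress: PERK to misfolded protein in the endoplasmic reticulum, PKR to double-stranded RNA, HRI to a lack of heme and to mitochondrial stress relayed by DELE1, and GCN2 to uncharged tRNA or stalled ribosomes. The phosphate is removed by protein phosphatase 1, which PPP1R15A or PPP1R15B directs to eIF2 alpha. PPP1R15B is known as the constitutive regulator and PPP1R15A as the one made during stress, so that the response feeds back on itself. The arrays measured mRNA only.

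Each line was plated into wells from a single stock, and the p-values therefore reflect only differences among wells, which could be technical in origin. The untreated JeKo-1 cells of the course were collected at 0 h, so a change there also holds the time in culture. The control for tunicamycin was collected at 24 h, so every 12 h tunicamycin change also holds a difference in time in culture. Each experiment had its own chip, and chip and experiment cannot be told apart, nor can group and position on a chip. The median signal of an array was 47.5 to 68.7 intensity units (range over the 28), and precision is set by how few arrays there are. The B-cell markers CD79A, CD79B and MS4A1 and the lymphoma gene SOX11 were detected on all 28 arrays, whereas the CCND1 probe was detected on 8 of 8 Z138 arrays and 0 of 20 JeKo-1 arrays. Of 10 markers of other cell types, 7 were detected on 0 arrays, while CD14 was detected on 7, NKG7 on 4 and COL1A1 on 8. Levels below are normalized log2 intensities, a change is a difference of such levels (log2 fold change) with its limma standard error after ±, and the call threshold was 0.05 on the Benjamini-Hochberg adjusted p over all genes of a comparison. Levels belong to a probe and are compared between groups, not between genes.

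The probes of EIF2AK1, EIF2AK2, EIF2AK3, EIF2S1 and PPP1R15A were detected (detection p under 0.01) on all 28 arrays. DNAJC3 was detected on 11 arrays, namely 8 of 8 Z138 arrays, 3 of 8 arrays of the tunicamycin and rapamycin experiment and 0 of 12 arrays of the ONC201 course. The brighter PPP1R15B probe was detected on 8 arrays, 0 of them in the ONC201 course, and its other probe on 0. So 5 members could be tested in the JeKo-1 ONC201 course and 7 in each of the other experiments, and the counts that follow are over those and not over all 8.

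PPP1R15A moved most, PPP1R15B stayed close to background, and DNAJC3 rose with ONC201 in parental Z138. With tunicamycin DNAJC3 stood above controls that were near background, and its fitted calls there carry no weight. For these reasons the sequences before the annotated starts of PPP1R15A, its paralog PPP1R15B and DNAJC3 are shown. They are the 250 bases upstream of the start, 5′ to 3′ on the gene's strand, from RefSeq on GRCh38.p14. PPP1R15A lies on the plus strand at chr19:48872171-48872420, PPP1R15B on the minus strand at chr1:204411818-204412067, and DNAJC3 on the plus strand at chr13:95676889-95677138. Capitals mark matches to TGACGT, the core of the cyclic AMP response element that ATF and CREB proteins can bind, or to TGATGNAA, the composite element read by C/EBP and ATF proteins.
PPP1R15A: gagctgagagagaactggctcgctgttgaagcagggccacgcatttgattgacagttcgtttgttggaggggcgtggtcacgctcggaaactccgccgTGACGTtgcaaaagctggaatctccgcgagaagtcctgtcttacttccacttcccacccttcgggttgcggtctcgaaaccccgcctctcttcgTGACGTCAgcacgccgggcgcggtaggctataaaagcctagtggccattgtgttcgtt
PPP1R15B: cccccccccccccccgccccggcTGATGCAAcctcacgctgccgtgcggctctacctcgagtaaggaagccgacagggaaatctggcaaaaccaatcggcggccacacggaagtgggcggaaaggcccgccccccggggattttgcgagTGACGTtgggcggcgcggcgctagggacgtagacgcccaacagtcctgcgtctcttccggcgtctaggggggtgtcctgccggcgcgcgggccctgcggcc
DNAJC3: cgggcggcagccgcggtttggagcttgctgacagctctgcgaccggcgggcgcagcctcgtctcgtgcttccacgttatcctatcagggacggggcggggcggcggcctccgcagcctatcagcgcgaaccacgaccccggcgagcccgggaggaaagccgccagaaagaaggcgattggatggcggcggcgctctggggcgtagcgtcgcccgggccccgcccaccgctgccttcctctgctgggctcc
In the PPP1R15A sequence TGACGT begins 152 and 58 bases before the start, and the second match overlaps one on the other strand. PPP1R15B holds TGACGT 101 bases and TGATGNAA 227 bases before its start, and DNAJC3 holds neither. The windows of EIF2AK2, EIF2AK3, EIF2AK4 and EIF2S1, which are not shown, also hold neither. Both strands were searched, and 7.1% of 35116 promoter windows of this length hold TGACGT while 3.14% hold TGATGNAA. Of the 8 members, 7 had such a sequence. None of those 7 held the stress element of the reticulum ERSE (CCAAT, 9 bases of any kind and CCACG, in 0.074% of windows), ERSE-II (ATTGG, 1 base of any kind and CCACG, 0.0513%) or the interferon element ISRE (GAAA, 2 bases of any kind and GAAA, 3.02%), which says only that these letters are not in this window. A match describes the sequence and is not a measured binding site.

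PPP1R15A, the stress-induced regulator that brings protein phosphatase 1 to eIF2 alpha, had the widest range of the 7 genes and rose with ONC201 in JeKo-1, with ONC201 in parental Z138 and with tunicamycin. In the JeKo-1 course its arrays read 7.17, 7.39 and 7.20 at 0 h, 7.48, 7.27 and 7.29 at 12 h, 8.71, 8.57 and 8.47 at 24 h, and 9.82, 9.76 and 9.77 at 36 h. The 12 h arrays overlapped the 0 h arrays, while every 24 h array lay above both and every 36 h array lay above the 24 h arrays. The change was 0.09 ± 0.09 at 12 h (adjusted p = 0.612, 95% interval -0.10 to 0.29), then 1.33 ± 0.09 at 24 h, or 2.51-fold (adjusted p = 6.54e-07), and 2.53 ± 0.09 at 36 h, or 5.77-fold (adjusted p = 1.4e-09). Between 24 and 36 h it rose by a further 1.20 ± 0.09 (adjusted p = 9.88e-06), ranking 14 of 8809 genes by size. The comparisons with 0 h share those control arrays.

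In Z138 the drug raised PPP1R15A in the parental cells, and no change was called in the resistant cells. Parental controls read 8.78 and 8.83 and parental cells with ONC201 read 11.78 and 11.70. Resistant controls read 7.97 and 8.11, and resistant cells with ONC201 read 8.03 and 8.12. The parental groups were far apart and the resistant groups overlapped. The parental rise was 2.94 ± 0.09, or 7.65-fold (adjusted p = 4.61e-07), ranking 8 of 9420 genes by size, against 0.04 ± 0.09 in resistant cells (adjusted p = 0.874, 95% interval -0.18 to 0.25). The difference between both effects was itself called, at -2.90 ± 0.13 (adjusted p = 1.17e-05). Without drug, resistant cells held less PPP1R15A mRNA than parental cells, by -0.76 ± 0.09 or 0.59 times (adjusted p = 0.00391), a call that median scaling in place of quantile normalization ended (-0.59, adjusted p = 0.0858).

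Tunicamycin raised PPP1R15A at both times, and a slight fall with rapamycin was called, but not under every alternative. The 24 h controls read 7.52 and 7.40, tunicamycin arrays read 9.30 and 9.18 at 12 h and 9.72 and 9.57 at 24 h, and rapamycin arrays read 7.15 and 7.06. None of the treated groups overlapped the controls, which these 3 comparisons share. The rise was 1.78 ± 0.10 at 12 h (adjusted p = 5.77e-05) and 2.19 ± 0.10 at 24 h (adjusted p = 9.84e-06). With rapamycin PPP1R15A fell by 0.35 on the log2 scale (SE 0.10, adjusted p = 0.0377), a call kept in 5 of 8 alternatives. The rapamycin call was lost without either control, either rapamycin or either 12 h tunicamycin array (adjusted p up to 0.171).

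**Figure D1:**
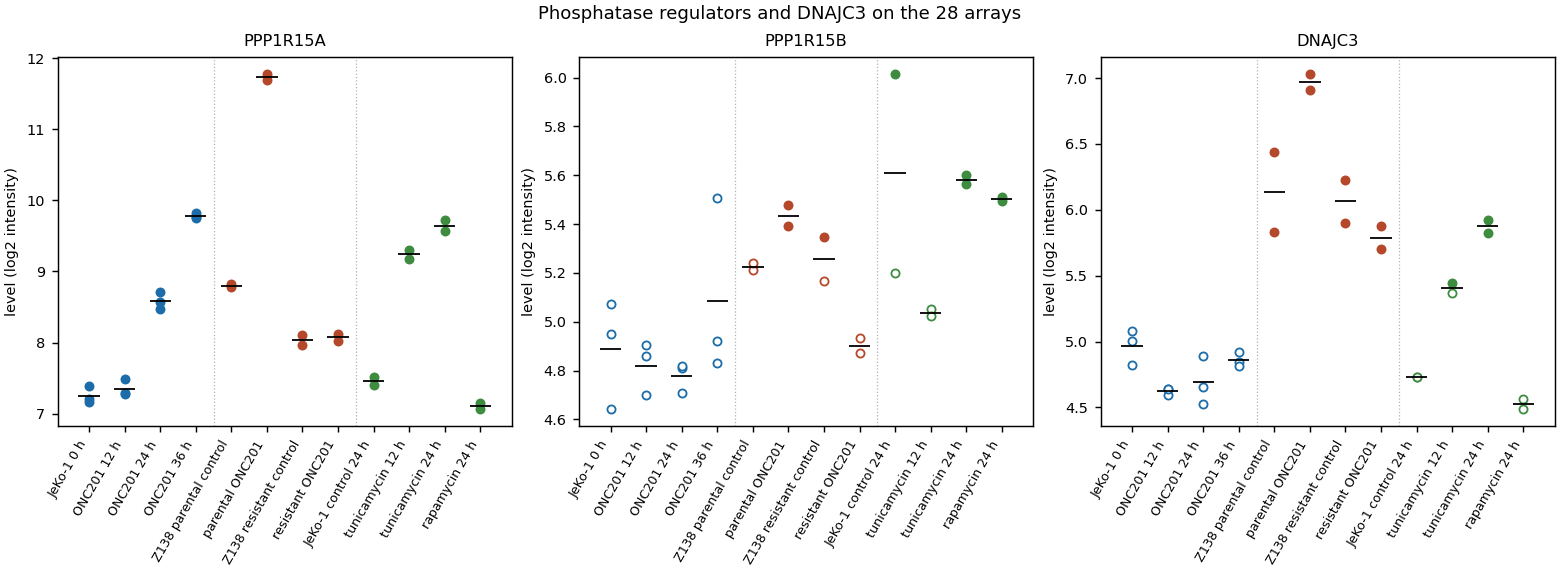
Levels of PPP1R15A, PPP1R15B and DNAJC3 (normalized log2 intensity) in the 12 groups, with 1 point per array and a bar at the group mean; filled points were detected and open points were not, and dotted lines part the 3 experiments. PPP1R15A runs from 7.06 with rapamycin to 11.78 in parental Z138 with ONC201, whereas PPP1R15B and DNAJC3 are mostly open points in JeKo-1.

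Ordered by mean, the PPP1R15A groups ran from parental Z138 with ONC201 (11.74) through JeKo-1 with ONC201 at 36 h (9.78), tunicamycin at 24 h (9.65) and 12 h (9.24), parental Z138 control (8.80) and JeKo-1 with ONC201 at 24 h (8.58) to the other groups at 7.11 to 8.08. Neighbours in this order whose arrays overlapped were the treated and untreated resistant Z138 cells, the 24 h JeKo-1 control and the 12 h ONC201 group, and the 12 h and 0 h ONC201 groups. Levels from different experiments also differ by chip. How often neighbours separate was not counted over all genes, so members are not compared by it.

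Effects from different experiments were set against each other as differences of within-experiment changes. The 24 h rise of PPP1R15A with ONC201 in JeKo-1 was smaller than that with tunicamycin at 24 h, by -0.86 ± 0.13 (adjusted p = 0.000152), and smaller than that with ONC201 in parental Z138, by -1.61 ± 0.13 (adjusted p = 9.15e-09). The JeKo-1 ONC201 effect was taken against 0 h and the others against 24 h controls, and the ONC201 doses may differ between the lines. Drug, chip and control time cannot be told apart in the difference to tunicamycin. In the difference to parental Z138, line, dose, chip and control time cannot be told apart. Both differences kept their call in every alternative run and without each array in turn.

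PPP1R15B, the constitutive phosphatase regulator, was too close to background for most comparisons. Its brighter probe read 5.21 and 5.24 in parental Z138 controls and 5.39 and 5.48 with ONC201, where both treated arrays and neither control were detected. In resistant Z138 the controls read 5.17 and 5.35 and the treated arrays 4.87 and 4.93. Neither the parental nor the resistant change was called (0.21 ± 0.10, adjusted p = 0.113, and -0.35 ± 0.10, adjusted p = 0.108). The difference of these effects was called at -0.56 ± 0.14 (adjusted p = 0.016), but 0 of 2 arrays were detected in the parental controls and 0 of 2 in the treated resistant cells, so its size is not a measured level difference, and 4 of 8 alternatives ended the call. That difference was also lost without parental ONC201 replicate 2 (-0.52, adjusted p = 0.0523) or resistant control replicate 2 (-0.47, adjusted p = 0.057).

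In JeKo-1 the 24 h controls for PPP1R15B disagreed, at 6.02 and 5.20, with only the first detected. Tunicamycin arrays read 5.05 and 5.02 at 12 h and 5.60 and 5.56 at 24 h, and rapamycin arrays 5.49 and 5.51. None of the changes was called, at -0.57 ± 0.22, -0.03 ± 0.22 and -0.10 ± 0.22, and the controls decided their values. Without control replicate 2 they were -0.98 (adjusted p = 0.00258), -0.43 (adjusted p = 0.0262) and -0.51 (adjusted p = 0.0227), and without control replicate 1 the 24 h tunicamycin change was 0.38 (adjusted p = 0.0412). No direction is drawn for this gene.

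DNAJC3, a chaperone partner in the reticulum first described as an inhibitor of PKR and also reported to restrain PERK, rose with ONC201 in parental Z138. With tunicamycin in JeKo-1 it stood above controls that were near background. In Z138 it read 6.44 and 5.83 in parental controls, 6.91 and 7.03 in parental cells with ONC201, 6.23 and 5.90 in resistant controls, and 5.70 and 5.88 in resistant cells with ONC201. Parental treated arrays lay above every other Z138 array, and the controls spread more widely than the treated arrays. The parental change was 0.83 ± 0.19 (adjusted p = 0.00835) and was lost without parental ONC201 replicate 2 (adjusted p = 0.0508). The resistant change was -0.28 ± 0.19 (adjusted p = 0.466). The difference of effects was -1.11 ± 0.27 (adjusted p = 0.0171), and it missed the threshold without parental ONC201 replicate 2, resistant control replicate 1 or resistant ONC201 replicate 1 (adjusted p up to 0.0588).

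Against JeKo-1 controls at 4.73 and 4.73, which were not well above background, tunicamycin arrays for DNAJC3 read 5.37 and 5.45 at 12 h, of which 1 was detected, and 5.82 and 5.93 at 24 h, both detected. The tunicamycin groups lay above the controls without overlap. DNAJC3 was at least 1.54-fold higher at 24 h, with the lowest detected signal standing for the controls. No bound is given at 12 h, where only 1 array was detected. The gene passed the detection filter of this experiment only through its tunicamycin arrays. Its fitted changes, 0.68 at 12 h and 1.15 at 24 h, were called, but these calls carry no weight here. With the values normalized by the authors neither was called (0.24, adjusted p = 0.641, and 0.78, adjusted p = 0.115). Rapamycin arrays, at 4.56 and 4.49, and all 12 arrays of the ONC201 course, at 4.53 to 5.08, were not well above background.

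Among the kinases, EIF2AK3, the reticulum kinase PERK, rose in the groups where PPP1R15A rose, except JeKo-1 at 24 h with ONC201, and by less. Its arrays in the JeKo-1 course read 6.11, 6.08 and 5.72 at 0 h, 6.11, 6.16 and 5.80 at 12 h, 6.0, 6.39 and 6.19 at 24 h, and 6.64, 6.72 and 6.66 at 36 h. The 36 h arrays alone cleared the range of the earlier times. The change was 0.05 ± 0.13 at 12 h, 0.22 ± 0.13 at 24 h (adjusted p = 0.208) and 0.70 ± 0.13 at 36 h, or 1.63-fold (adjusted p = 0.000719). The step from 24 to 36 h was 0.48 ± 0.13 (adjusted p = 0.0271), and 5 of 12 fits that left out an array ended that call, those without 24 h replicate 1 or 3 or any of the 36 h arrays.

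Parental Z138 controls read 6.98 and 6.84 for EIF2AK3 and treated cells 7.63 and 7.63, while resistant controls read 6.46 and 6.86 and treated cells 6.51 and 6.70. The parental groups were apart and the resistant groups overlapped. The rise was 0.72 ± 0.14 in parental cells (adjusted p = 0.00353) and the resistant change was -0.05 ± 0.14 (adjusted p = 0.869). Their difference, -0.77 ± 0.20, was called (adjusted p = 0.0193). It was not called without parental control replicate 2, either parental ONC201 array or resistant ONC201 replicate 1 (adjusted p up to 0.0595).

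EIF2AK3 in the tunicamycin experiment read 6.28 and 6.28 in controls, 7.14 and 6.94 at 12 h, 7.47 and 7.39 at 24 h, and 6.57 and 6.74 with rapamycin. All treated arrays were above the controls. It rose with tunicamycin by 0.76 ± 0.10 at 12 h (adjusted p = 0.00217) and 1.15 ± 0.10 at 24 h, or 2.22-fold (adjusted p = 0.000196), and with rapamycin by 0.37 ± 0.10 (adjusted p = 0.037). The rapamycin call held in 2 of 8 alternatives and in 2 of 8 fits without an array, and was lost without either control, either rapamycin or either 24 h tunicamycin array. The ONC201 effect at 24 h was smaller than the tunicamycin effect by -0.93 ± 0.19 (adjusted p = 0.00144). Its difference to the parental Z138 effect, -0.50 ± 0.19, was not called (adjusted p = 0.057). That difference passed in 4 of 7 alternatives and in 5 of 28 fits without an array, with the lowest adjusted p without 0 h replicate 3 (-0.62, adjusted p = 0.0151), and also without 12 h replicate 3, 24 h replicate 2 or either resistant control.

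**Figure D2:**
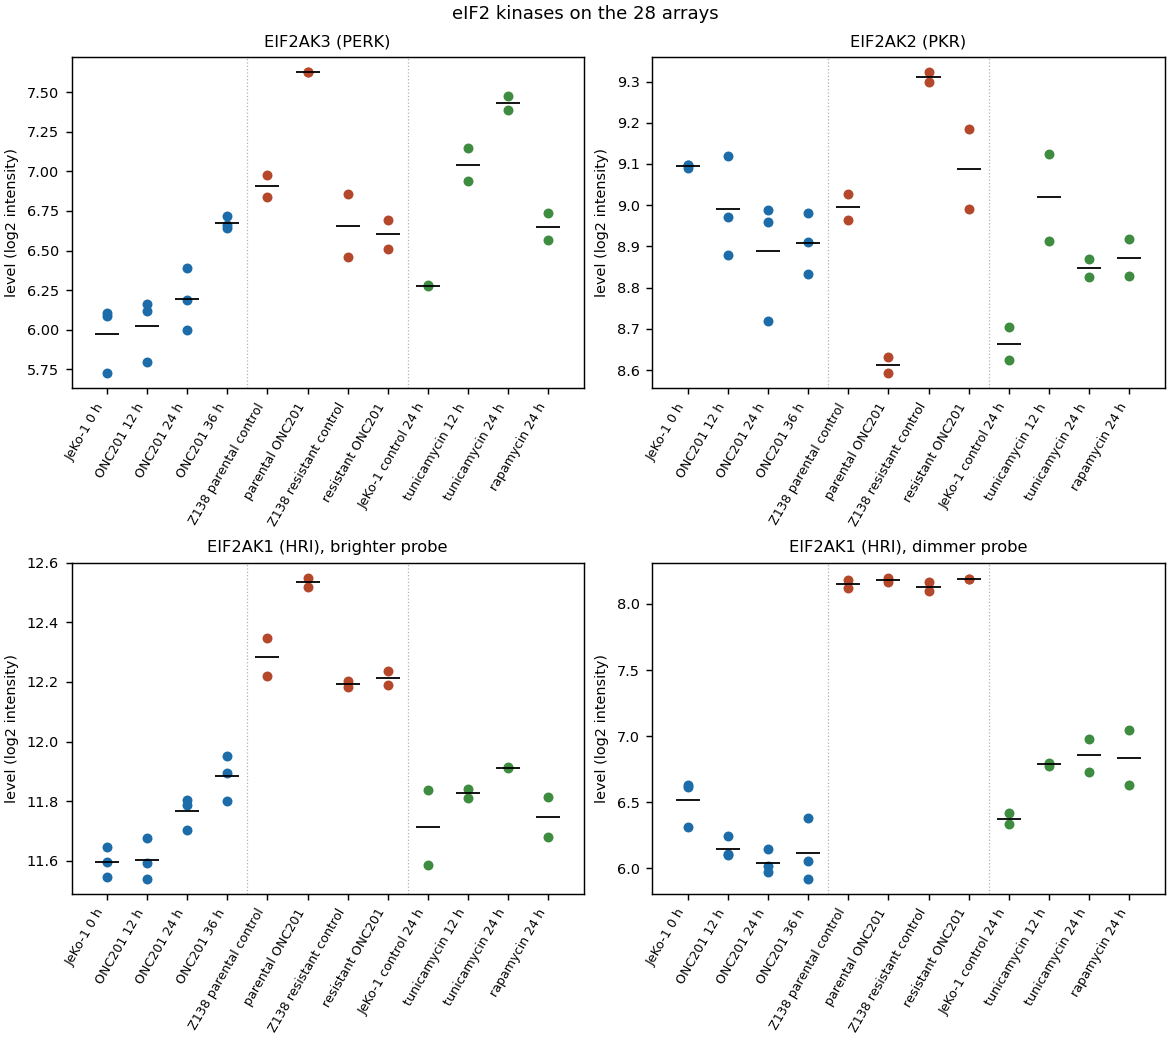
Levels (normalized log2 intensity) of 3 eIF2 kinases in the 12 groups, with 1 point per array and a bar at the group mean; dotted lines part the 3 experiments, and EIF2AK1 is shown for each of its 2 probes. EIF2AK3 is highest in parental Z138 with ONC201 (7.63), and the EIF2AK1 probes go opposite ways over the ONC201 course.

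EIF2AK1 encodes HRI, the kinase that also relays mitochondrial stress, and its 2 probes disagreed in JeKo-1 with ONC201. The brighter probe, ILMN_2156267, read 11.54, 11.65 and 11.60 at 0 h, 11.68, 11.54 and 11.59 at 12 h, 11.70, 11.79 and 11.80 at 24 h, and 11.80, 11.90 and 11.95 at 36 h. The dimmer probe, ILMN_3250614, read 6.63, 6.31 and 6.61 at 0 h, 6.10, 6.10 and 6.24 at 12 h, 5.97, 6.02 and 6.14 at 24 h, and 5.92, 6.05 and 6.38 at 36 h. On the brighter probe the 24 and 36 h arrays lay above 0 h, and on the dimmer probe the 12 and 24 h arrays lay below it.

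On the brighter probe EIF2AK1 rose by 0.29 ± 0.07 at 36 h (adjusted p = 0.00355) and was not called at 24 h (0.17 ± 0.07, adjusted p = 0.0656). The 36 h rise was 0.10 with median scaling and not called there (adjusted p = 0.38). On the dimmer probe, in a fit of every probe, EIF2AK1 fell by 0.48 at 24 h (SE 0.12, adjusted p = 0.0115) and by 0.40 at 36 h (SE 0.12, adjusted p = 0.0185), and was not called at 12 h (-0.37 ± 0.12, adjusted p = 0.142). The platform table pairs the probes with different RefSeq transcripts of the gene, and no direction is drawn for the gene as a whole.

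In Z138 the dimmer EIF2AK1 probe stood at 8.10 to 8.20 on all 8 arrays with no change called, against 5.92 to 7.04 on the 20 JeKo-1 arrays. The brighter probe read 12.22 and 12.35 in parental controls and 12.55 and 12.52 with ONC201, a rise of 0.25 ± 0.09 (adjusted p = 0.047) that no fit without an array kept (adjusted p from 0.0535 to 0.207). In the tunicamycin experiment neither probe was called: the brighter read changes of 0.12 ± 0.11, 0.20 ± 0.11 and 0.04 ± 0.11 with tunicamycin at 12 h, at 24 h and with rapamycin, and the dimmer 0.41 ± 0.15, 0.48 ± 0.15 and 0.46 ± 0.15. The dimmer probe separated the JeKo-1 ONC201 and tunicamycin effects at 24 h (-0.96 ± 0.20, adjusted p = 0.00261), which the brighter did not (-0.03 ± 0.11, adjusted p = 0.871). It also separated the 24 h ONC201 effects in JeKo-1 and parental Z138 (-0.51 ± 0.18, adjusted p = 0.0473), again unlike the brighter (-0.08, adjusted p = 0.614).

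EIF2AK2, the kinase PKR, which interferon induces and double-stranded RNA activates, changed little. It fell in parental Z138 with ONC201, from 9.03 and 8.96 to 8.63 and 8.59, by 0.38 on the log2 scale (SE 0.10, adjusted p = 0.0119). That call was lost with median scaling (-0.15, adjusted p = 0.601). There the median change of all genes was 0.19, and EIF2AK2 was at -0.345 relative to it. The call was also lost without parental control replicate 1 (-0.35) or parental ONC201 replicate 2 (-0.36). In resistant cells the arrays went from 9.32 and 9.30 to 9.18 and 8.99, which did not overlap but were not called (-0.22 ± 0.10, adjusted p = 0.244), and the difference of effects was not called (0.16 ± 0.14, adjusted p = 0.408).

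In JeKo-1, EIF2AK2 read 8.72 to 9.12 over the ONC201 course with 0 calls, at changes of -0.11 ± 0.09, -0.21 ± 0.09 and -0.19 ± 0.09 for 12, 24 and 36 h. It rose from 8.70 and 8.62 in controls to 8.91 and 9.12 with tunicamycin at 12 h, by 0.35 ± 0.10 (adjusted p = 0.0361). That call was kept in 3 of 8 alternatives, and it was lost without either control, 12 h tunicamycin replicate 2 or either 24 h tunicamycin array (adjusted p up to 0.175). The changes with tunicamycin at 24 h (0.18 ± 0.10) and rapamycin (0.21 ± 0.10) were not called. The ONC201 effect at 24 h was below the tunicamycin effect by -0.39 ± 0.13 (adjusted p = 0.0358). Median scaling and testing without the detection filter ended that call (adjusted p = 0.138 and 0.0687), as did leaving out either JeKo-1 control, any 0 h array, 24 h ONC201 replicate 3 or either 24 h tunicamycin array (adjusted p up to 0.117).

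EIF2S1, the subunit that the kinases phosphorylate, fell modestly in JeKo-1 with ONC201. Its arrays read 8.07, 8.16 and 8.07 at 0 h, 7.77, 7.78 and 7.90 at 12 h, 7.65, 7.86 and 7.78 at 24 h, and 7.81, 7.90 and 7.97 at 36 h. Every treated array lay below the 0 h arrays. The change was -0.28 ± 0.08 at 12 h (adjusted p = 0.0641), -0.34 ± 0.08 at 24 h (adjusted p = 0.00446) and -0.21 ± 0.08 at 36 h (adjusted p = 0.0394), of which the 24 h fall kept its call in all 8 alternatives and the 36 h fall in 4 of 8. Of the 12 fits without an array 6 also ended the 36 h call, with adjusted p up to 0.14.

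In Z138, EIF2S1 read 7.63 to 8.13 with 0 calls, at 0.04 ± 0.12 in parental and 0.18 ± 0.12 in resistant cells. With rapamycin it fell from 8.21 and 8.37 in controls to 7.83 and 7.86, by 0.44 on the log2 scale (SE 0.12, adjusted p = 0.0372), a call that 6 of 8 fits without an array ended. Tunicamycin arrays, from 7.91 to 8.32, were not called against the controls (-0.03 ± 0.12 and -0.22 ± 0.12).

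Counted over the members tested, ONC201 in JeKo-1 gave 0 of 5 called at 12 h, where 3.83% of all genes tested were called (2.17% higher, 1.66% lower). Of these 5 only EIF2S1 had an unadjusted p under 0.05, as did 1664 of 8809 genes. At 24 h 2 of 5 were called (38.4% of all genes, 19.9% higher and 18.5% lower), PPP1R15A higher and EIF2S1 lower. At 36 h 4 of 5 were called (51.1%, 25.2% higher and 26% lower), with EIF2AK3 added as higher and also EIF2AK1, which was counted by its brighter probe although its dimmer probe fell and median scaling ended the call. From 24 to 36 h 2 of 5 rose (14.5% called, 6.96% higher and 7.54% lower). In parental Z138 5 of 7 were called (44.8%, 22.8% higher and 22% lower), 4 higher and 1 lower. In resistant Z138 0 of 7 were called (0.669%, 0.18% higher and 0.488% lower), while 2 of 7, EIF2AK2 and PPP1R15B, had an unadjusted p under 0.05, as did 1860 of 9420 genes. Untreated resistant against parental cells gave 1 of 7, lower (3.98%, 1.55% higher and 2.43% lower), and the difference of effects gave 4 of 7, all lower and with PPP1R15B near background among them (30.6%, 14.3% higher and 16.3% lower). Tunicamycin gave 4 of 7 at 12 h (25.6%, 13.9% higher and 11.7% lower) and 3 of 7 at 24 h (32.6%, 17.3% higher and 15.4% lower), all higher. DNAJC3 is in both tunicamycin counts, although it passed the detection filter there only through tunicamycin arrays. Rapamycin gave 3 of 7 (24.6%, 12% higher and 12.6% lower), 1 higher and 2 lower. For ONC201 minus tunicamycin 3 of 5 were lower (26.6%, 13.3% higher and 13.3% lower) and for JeKo-1 minus parental Z138 1 of 5 was lower (27.4%, 13.8% higher and 13.6% lower). In both, EIF2AK1 was counted by its brighter probe and not called, although its dimmer probe was lower. With so few members these shares describe them, and the sizes above carry the result.

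**Figure D3:**
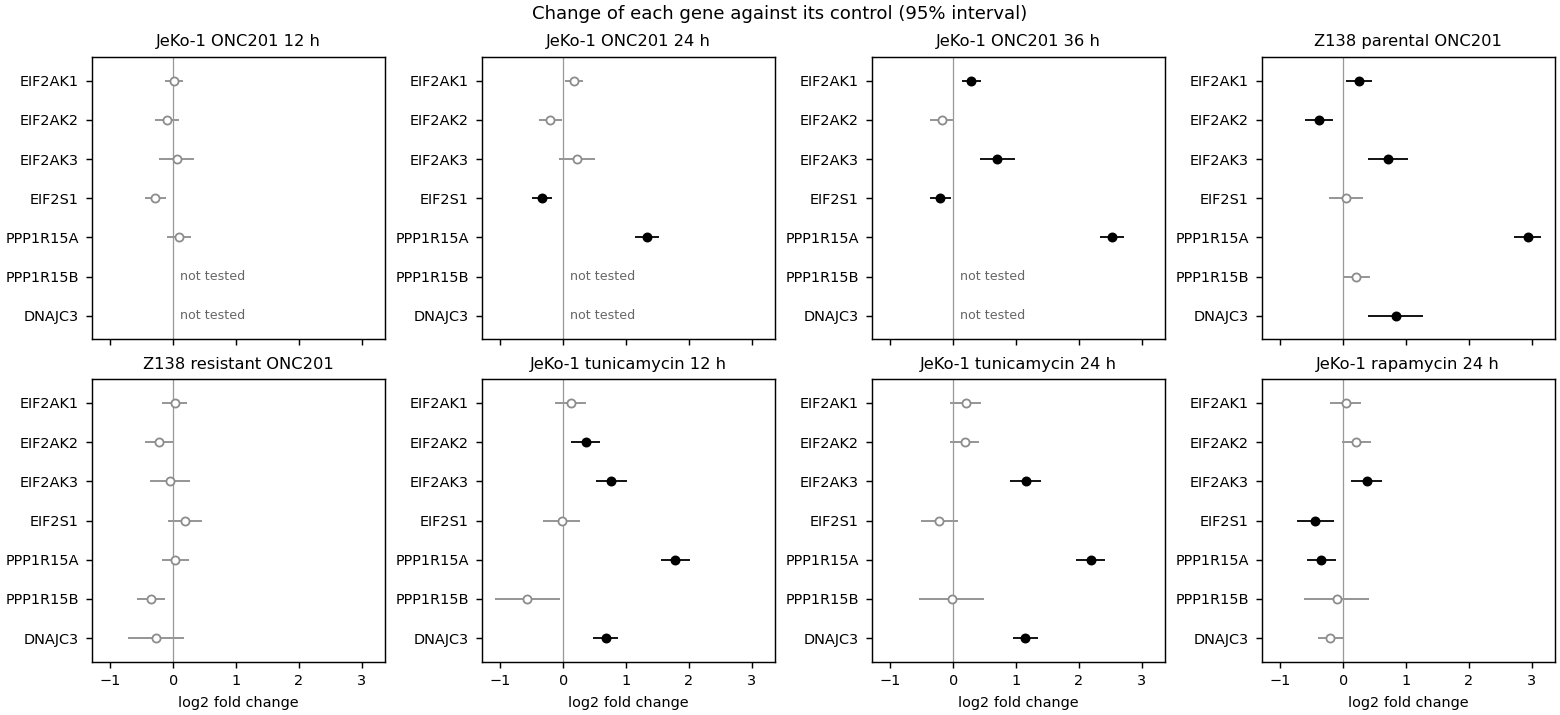
Log2 fold change of each member against its control with its 95% interval from limma, in 8 comparisons; filled black points were called at an adjusted p under 0.05, open grey points were not, and "not tested" marks genes whose probe failed the detection filter. PPP1R15A stands apart at 1.33 to 2.94 in the 5 comparisons where it rose, while the other members stay within about 1.15.

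The targets of the response were followed over the same course. They were listed with earlier results of these data known, so their counts are descriptions and not an independent measure. Of 10 listed targets, 9 had risen by 12 h of ONC201 in JeKo-1, where 2.17% of all genes rose. Their median change was 0.73 against 0.00 over all genes. TRIB3, a pseudokinase gene, was up by 1.69 ± 0.08, the sestrin SESN2 by 1.44 ± 0.13, the transcription factor gene DDIT3 by 0.80 ± 0.08 and CEBPG by 0.43 ± 0.08, while ATF4, whose regulation is largely translational, was at 0.09 ± 0.07 and PPP1R15A at 0.09 ± 0.09. By 24 h all 10 targets had risen (19.9% of all genes), with a median of 1.57. From 24 to 36 h 3 of 10 rose further (6.96% of all genes), DDIT3 by 0.44 ± 0.08, ATF3 by 0.60 ± 0.13 and TRIB3 by 0.32 ± 0.08, beside 1.20 ± 0.09 for PPP1R15A. Differences between genes were not tested.

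In parental Z138 9 of 10 targets rose (median 1.10, with 22.8% of all genes rising), ATF5 being the exception at 0.17 ± 0.12. In resistant Z138 0 of 10 were called (median 0.22, with 0.669% of all genes called). Tunicamycin raised 10 of 10 at both times, with medians of 1.40 and 1.21, where 13.9% and 17.3% of all genes rose. Rapamycin lowered 9 of 10 (12.6% of all genes), with a median of -1.35, all but CEBPG (-0.07 ± 0.09). There ATF5 fell by 3.14 (SE 0.09), ATF3 by 2.57 (SE 0.16) and CHAC1 by 2.15 (SE 0.11) on the log2 scale, beside 0.35 for PPP1R15A, and EIF2AK3 went the other way.

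**Figure D4:**
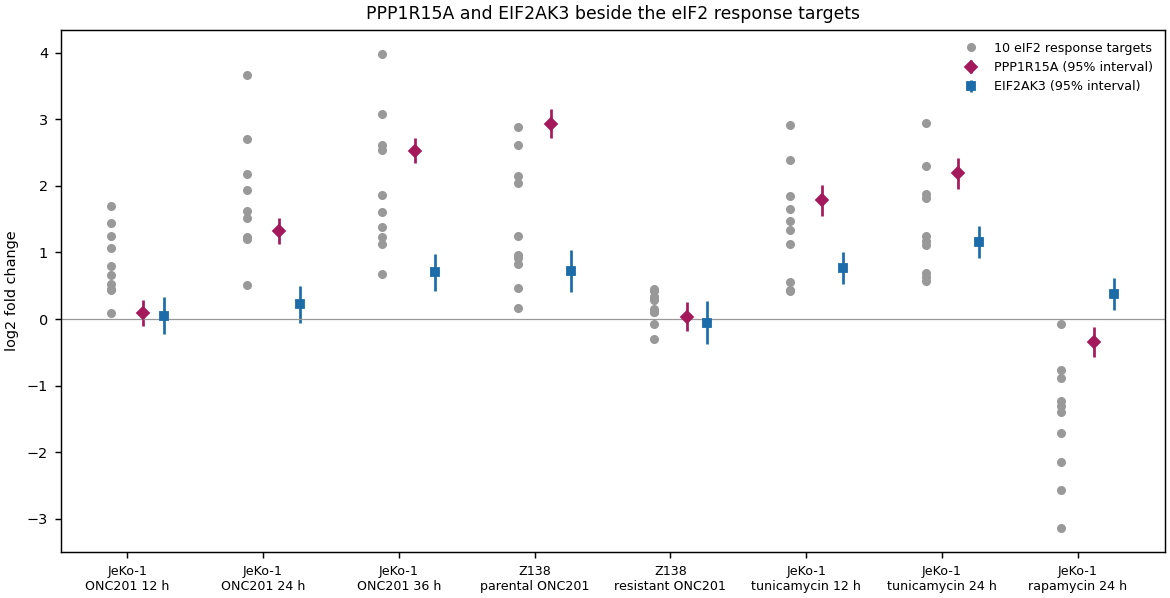
Log2 fold changes of PPP1R15A and EIF2AK3 (with 95% intervals) beside the 10 listed targets of the eIF2 response (grey points) in 8 comparisons against controls. The targets were listed with earlier results of these data known. At 12 h of ONC201 both genes lie near 0 under most targets, and with rapamycin the targets reach -3.14 while PPP1R15A is at -0.35.

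Genes of the reticulum's own stress pathways, which include chaperones and parts of protein disposal, are given beside EIF2AK3 and DNAJC3. With tunicamycin 7 of 7 tested rose at both times (medians 1.39 and 1.83), where 13.9% and 17.3% of all genes rose. With ONC201 8 of 8 rose in parental Z138 (median 1.40), where 22.8% of all genes rose. In JeKo-1 with ONC201, 1 of 7 rose and 2 fell at 12 h (3.83% of all genes called). At 24 h 3 rose and 1 fell (38.4%), and at 36 h 6 rose and 1 fell (51.1%). DNAJB9, a reticulum chaperone gene, was at 0.01 ± 0.10, 0.91 ± 0.10 and 1.99 ± 0.10 at these times, the last 2 called, and SDF2L1 fell by 0.69 (SE 0.10), 1.37 (SE 0.10) and 0.64 (SE 0.10). HSPA5, the chaperone BiP, which holds PERK inactive, is not in these counts and was listed with the kinase regulators below. It fell by 0.95 (SE 0.08) at 12 h and 1.25 (SE 0.08) at 24 h and was at -0.10 ± 0.08 at 36 h. It rose by 1.61 ± 0.10 in parental Z138 and by 0.55 ± 0.09 and 0.82 ± 0.09 with tunicamycin, and fell by 0.87 (SE 0.09) with rapamycin.

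The other regulators of the kinases were called about as often as all genes at 24 and 36 h of the JeKo-1 course. Of 7 tested with HSPA5 among them, 1 rose and 2 fell at 24 h and 3 rose and 1 fell at 36 h in JeKo-1 with ONC201, times at which 38.4% and 51.1% of all genes were called. NCK1, an adaptor reported to act with phosphatase 1 at eIF2, rose at both times (0.30 ± 0.09 and 0.39 ± 0.09) and by 0.69 ± 0.09 in parental Z138. PRKRA, an activator of PKR, rose by 0.48 ± 0.08 at 36 h and fell by 0.49 (SE 0.10) with rapamycin. TARBP2, an inhibitor of PKR, fell by 0.29 (SE 0.09) and 0.45 (SE 0.09) at 24 and 36 h and by 0.39 (SE 0.09) in parental Z138, and rose by 0.43 ± 0.10 with tunicamycin at 12 h. OMA1, the mitochondrial protease upstream of DELE1, rose in parental Z138 (0.40 ± 0.10) and was not called in the JeKo-1 course.

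Interferon-induced genes are given as a reference for EIF2AK2. Against 0 h, 0 of 5 rose in JeKo-1 with ONC201, where 2.17%, 19.9% and 25.2% of all genes rose at 12, 24 and 36 h. MX1 fell at each time (-0.69 ± 0.08, -0.59 ± 0.08 and -0.46 ± 0.08). IFI6 fell by 0.36 (SE 0.11) at 24 h, and IRF9 rose by 0.28 ± 0.08 from 24 to 36 h. In parental Z138 1 of 6 rose (22.8% of all genes), IRF9 by 1.30 ± 0.13, and IFIT3 fell by 0.55 (SE 0.18). IRF9 also rose with tunicamycin at 24 h by 1.02 ± 0.08 while MX1 fell by 0.44 (SE 0.08).

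The partners of the phosphatase regulators and of EIF2S1 were read in the same fits. PPP1CA, a catalytic subunit of protein phosphatase 1, fell with ONC201 by 0.41 (SE 0.12) at 24 h and 0.61 (SE 0.12) at 36 h in JeKo-1 and by 0.49 (SE 0.09) in parental Z138. PPP1CB fell by 0.21 (SE 0.07) at 36 h and rose by 0.29 ± 0.09 with tunicamycin at 24 h, while PPP1CC rose by 0.18 ± 0.07 at 24 h of ONC201. Among 8 genes of eIF2, eIF2B and eIF5, 1 rose and 1 fell at 24 h and again at 36 h of ONC201 in JeKo-1. At these times 38.4% and 51.1% of all genes were called. In parental Z138 2 of the 8 rose, where 22.8% of all genes rose. EIF2S3, the gamma subunit, rose by 0.35 ± 0.07, 0.37 ± 0.07 and 0.50 ± 0.09 in these comparisons, so that it and EIF2S1 went opposite ways in JeKo-1. EIF5, which assists eIF2 at start codon selection, rose with tunicamycin by 0.62 ± 0.11 and 0.73 ± 0.11, and EIF2S2, the beta subunit, fell with rapamycin by 0.62 (SE 0.10).

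Across the 28 arrays, after the mean of each experiment was subtracted, the 5 members detected on all arrays were correlated in pairs. Pearson's r was 0.897 for PPP1R15A with EIF2AK3, 0.875 for PPP1R15A with EIF2AK1 on its brighter probe and 0.799 for EIF2AK1 with EIF2AK3. It was -0.533 for EIF2AK2 with EIF2AK1, -0.519 for EIF2AK2 with PPP1R15A and -0.383 for EIF2AK2 with EIF2AK3, and between -0.241 and 0.275 for EIF2S1 with the others. These are descriptions over arrays that share drugs and chips, without a test. Among 8070 genes, the patterns nearest to PPP1R15A were those of MAP1LC3B (r = 0.988), an autophagy gene, the noncoding SNHG32 (0.982) and EDEM2 (0.979), a gene of reticulum protein disposal. EIF2AK3 was nearest to GMPPA (0.923), EDEM2 (0.923) and DNAJC10 (0.918), and EIF2AK1 to ST3GAL5 (0.903), DDX50 (0.901) and SLC25A42 (0.897). EIF2AK2 was nearest to GTPBP3 (0.824), PTBP1 (0.815) and CHEK1 (0.814), and EIF2S1 to CYP27B1 (0.747), GTPBP4 (0.705) and UQCC1 (0.696).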

How the data were processed

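RNA from 28 samples was hybridised to bead arrays, and the submitters' processing notes name GenomeStudio. The authors deposited a table of linear bead intensity that is not background corrected, per the file headers. Beside each deposited intensity stands a detection p-value, also per the file headers. A background-subtracted intensity table was not used for tests. A further deposited table, normalized by the authors with an unstated method, holds intensity for 38220 probes and served as an alternative. Medians of its arrays (23.6 to 25.3) show a linear, uncentred scale.

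Signals were processed with neqc of limma 3.58.1 in R 4.3.3: background from the detection p-values, an offset of 16, log2, and quantile normalization of the 28 arrays. Names came from the platform table (27004 probes with 1 symbol, 4 with several, 20223 with none), updated by gene ID for 26970, and 34 kept the name given. A gene was its probe with the highest mean, kept at detection p under 0.01 on 3 arrays (ONC201 course) or 2 (others). Each experiment was fitted with limma's lmFit and eBayes, 4 groups sharing the spread. Differences between experiments used the 20 JeKo-1 or all 28 arrays, and p-values were adjusted by Benjamini-Hochberg over 8158 to 9498 genes. No array was left out, and replicate files held no identical values. In simulated data 70% of genes changed by 0.5 (log2) were recovered in the ONC201 course, 36% in the Z138 experiment and 34% in the tunicamycin experiment, and 96%, 89% and 76% of those changed by 1. Same-numbered arrays did not deviate together (correlations over 0.1 in 1 of 18, 0 of 12 and 0 of 12 pairs), so replicate numbers were not used as pairs.

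The members, lists, tests and named genes (all members, and up to 4 called genes of each list with the largest changes or a bearing on a member) were chosen with earlier results of these data known. The alternatives were 8 settings and leaving out each array.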

Additional observations from a re-analysis of the deposited data

Results flagged for a closer look

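The effect of ONC201 at 24 h differed between resistant and parental Z138 for 3 genes detected in all 4 groups, by the test of the difference itself (limma, n = 2 arrays per group). Of all genes tested, 30.6% were called in that difference. The resistant minus parental difference was -2.90 (log2) for PPP1R15A (adjusted p = 1.17e-05), -1.11 for DNAJC3 (adjusted p = 0.0171) and -0.77 for EIF2AK3 (adjusted p = 0.0193). The fitted value for PPP1R15B, -0.56 (adjusted p = 0.016), also passed, but 0 of 2 arrays were detected in both the parental control and the treated resistant group, and no direction is drawn from it. The effect of ONC201 in JeKo-1 at 24 h differed from that of tunicamycin at 24 h for 3 genes, where 26.6% of all genes were called. The differences were -0.86 for PPP1R15A, -0.93 for EIF2AK3 and -0.39 for EIF2AK2. The same JeKo-1 effect differed from that of ONC201 in parental Z138 for PPP1R15A, by -1.61, where 27.4% of all genes were called. This JeKo-1 effect was taken against 0 h, and the tunicamycin and Z138 effects against 24 h controls. Of these 8 results, those for PPP1R15A and the EIF2AK3 difference to tunicamycin held without each array in turn. Single arrays were not searched for outliers, since groups held 2 or 3.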

How the results depend on the processing

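PPP1R15A kept its calls for ONC201 in JeKo-1 at 24 and 36 h and between them, for ONC201 in parental Z138, for tunicamycin at both times and for the 3 differences between effects under every alternative run for them and without each array. EIF2AK3 did so at 36 h, in parental Z138, with tunicamycin and in the difference to tunicamycin, and EIF2S1 at 24 h. The cause of the other changes was not tested. Changes near 0 took either sign in some settings, and the one turned sign that was then called was that of PPP1R15B with tunicamycin at 24 h, at 0.38 without control replicate 1 and -0.43 without control replicate 2, against -0.03 with both. Low signal limits PPP1R15B and DNAJC3, and 2 arrays per group limit all small changes.

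Replicate numbers did not pair the arrays (correlations of same-numbered deviations from -0.202 to 0.125). With a replicate block, ONC201 at 12 h called 125 genes higher (191 without) and 93 lower (146), resistant Z138 0 and 0, rapamycin 0 members higher (1) and JeKo-1 minus parental Z138 3 members lower (1).

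Median scaling in place of quantile normalization put the median change of all genes at 0.19 in parental Z138 and -0.12 in resistant Z138. The median was 0.17 between untreated resistant and parental cells, -0.32 in their difference of effects and -0.18 in JeKo-1 minus parental Z138. Relative to these, PPP1R15A was at 2.84, 0.02, -0.76, -2.81 and -1.47. Under it ONC201 at 12 h called 83 genes higher (191) and 148 lower (146), 36 against 24 h 388 higher (613), parental Z138 2445 higher (2148) and 672 lower (2075), resistant Z138 17 higher (17) and 91 lower (46), untreated cells 182 higher (146) and 111 lower (229), the difference of effects 236 higher (1346) and 2081 lower (1537), tunicamycin at 12 h 876 higher (1316) and 1113 lower (1116), rapamycin 673 higher (1143) and 1258 lower (1196), and JeKo-1 minus parental Z138 378 higher (1122) and 1431 lower (1110). Its member counts were 0 lower at 36 h, in parental Z138 and between untreated cells (1 each), 0 higher with rapamycin (1) and 3 lower in JeKo-1 minus parental Z138 (1).

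Without background correction and with an offset of 50, resistant Z138 called 176 and 198 genes higher (17) and 242 and 256 lower (46), and JeKo-1 minus parental Z138 called 3 members lower in both (1). The authors' normalized values called 120 genes higher at 12 h, 0 higher and 0 lower in resistant Z138, and 83 higher and 141 lower between untreated cells, with members at 0 lower at 36 h, 1 higher from 24 to 36 h, 2 higher with tunicamycin at 12 h (4), and 0 higher and 1 lower with rapamycin. Without the detection filter, which tests more genes, 125 were higher at 12 h, 0 and 0 in resistant Z138, and 72 higher and 133 lower between untreated cells, with members at 0 lower at 36 h, 1 higher from 24 to 36 h, 0 and 0 with rapamycin, and 2 lower in JeKo-1 minus parental Z138. Testing every probe separately, which counts probes rather than genes, gave 2588 lower at 24 h (1630), 3572 higher and 3698 lower at 36 h (2218 and 2286), 3196 lower in parental Z138, 5 higher and 10 lower in resistant Z138, 2206 lower with tunicamycin at 24 h (1458) and 1771 higher in ONC201 minus tunicamycin (1145), with members at 0 and 0 for rapamycin. A single fit of all 28 arrays called 238 lower at 12 h, 277 higher and 328 lower in resistant Z138 and 281 higher between untreated cells, with members at 2 higher and 2 lower at 24 h (1 and 1), 0 lower at 36 h, 1 lower with tunicamycin at 12 h (0) and 0 higher with rapamycin.

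Leaving out 1 array at a time gave 83 to 167 genes higher and 65 to 129 lower at 12 h, 440 to 765 lower from 24 to 36 h (664), 0 to 6 higher and 0 to 16 lower in resistant Z138, 24 to 128 higher and 84 to 199 lower between untreated cells, 715 to 1237 higher and 652 to 1052 lower with tunicamycin at 12 h, 1071 to 1638 higher and 952 to 1418 lower at 24 h, and 522 to 1058 higher and 655 to 1084 lower with rapamycin. Members numbered 0 to 1 lower at 36 h, 1 to 2 higher from 24 to 36 h, 2 to 3 higher (4) and 0 to 1 lower in parental Z138, 1 to 4 lower in the difference of effects (4), 0 to 1 lower with tunicamycin at either time (0), 0 to 1 higher and 0 to 2 lower with rapamycin, and 1 to 3 lower in JeKo-1 minus parental Z138.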
